A study of Rattus norvegicus with 24 samples.

Results

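The 2 dye-swapped arrays that set RNA of the hypothalamus of rats given 0.16 mg/kg of MK-801 against hypothalamic RNA of saline-treated rats are described here, out of 24 arrays in all. They were taken by region and dose as the labels give them, and no measured value entered that choice. The animals were male Wistar rats, 9 in total, of which 3 received saline, and no group carried a genetic change. Their age is 9 weeks in the sample labels and 10 weeks in the design text. The drug or saline was given once by intraperitoneal injection, and the brains were removed 40 min later and divided into 6 regions (amygdala, cerebral cortex, hippocampus, hypothalamus, midbrain and ventral striatum). Each region was also measured at 0.08 mg/kg, the low dose, against saline RNA of the same region. Every pairing of region and dose had 2 arrays. On array 1 the treated RNA carried the dye Cy5 and on array 2 it carried Cy3. How many rats gave each extract, and whether the arrays of a pair were hybridised with separate extracts, is not in the labels. A pair was therefore counted as 1 replicate, and no p-value can be given for the hypothalamus on its own.

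MK-801 (dizocilpine) enters and blocks the open channel of the NMDA receptor, the glutamate receptor that admits calcium when a synapse is active. In cortical and limbic circuits a systemic dose is known to alter firing within minutes, and the first transcripts to follow are the immediate early genes, which need no new protein for their induction. The hypothalamus is a set of small nuclei that control feeding, body temperature, sleep and the pituitary, and many of its neurons are known by the peptide they release. Melanin-concentrating hormone neurons of its lateral part promote feeding and sleep, and dopamine neurons occur in several of its nuclei. It borders the thalamus above, the midbrain behind, the telencephalon in front and the choroid plexus of the third ventricle, so a dissected block can hold some of each.

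Each gene was read by a probe of 60 bases. The probes of 5 genes that lead the results are printed so that a reader can place the measurement, and each holds at least 1 reading frame without a stop along its length. Positions are those of the rn3 build, as the scanner files print them; the annotation of that build is not used here. The probe of Pmch, the precursor of melanin-concentrating hormone, is at chr7:24799534-24799593 on the plus strand. That of Th, tyrosine hydroxylase, is at chr1:203318940-203318999 on the minus strand. The probe of Fos, a subunit of the AP-1 transcription factor, is at chr6:109564555-109564614 on the plus strand. Those of Dusp1, a phosphatase of MAP kinases, and Galnt16, an enzyme that starts O-linked glycans, lie on the plus strand at chr10:16945391-16945710 and chr6:104363509-104367590. The last 2 spans are 320 and 4082 bases long, which is more than the probe, so each joins parts that are separate in the genome.
Pmch: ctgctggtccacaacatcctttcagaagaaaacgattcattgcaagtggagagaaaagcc
Th: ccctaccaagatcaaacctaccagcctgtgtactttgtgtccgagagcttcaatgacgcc
Fos: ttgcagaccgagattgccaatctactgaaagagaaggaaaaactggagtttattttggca
Dusp1: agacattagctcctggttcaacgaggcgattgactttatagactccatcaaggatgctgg
Galnt16: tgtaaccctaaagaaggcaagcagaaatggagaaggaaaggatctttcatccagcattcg

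Each value is the log2 of the treated over the saline signal, averaged over the 2 arrays with the array values beside it, unless a sentence says otherwise. A gene was tested when the treated or the saline channel was well above background on both arrays, which left 22415 of 35526 features. It counted as higher or lower when the mean passed 1.5-fold (0.58 on the log2 scale) with 1 sign on both arrays. The share of spots well above background was 65.2% to 72.9% in the channels of these 2 arrays, against 56.8% to 89.7% over the series. The number of arrays limits the precision. The median SD between the 2 arrays was 0.109, which includes the dye effect of each gene. Over all tested genes 41.8% had 1 sign on both arrays, the share beside which such counts in gene lists stand. The correlation of the 2 arrays over these genes was -0.0895, and 0.318 once each gene's mean dye effect over the series was taken off.

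The tissue label was compared with the saline channels. Pmch was at a normalized log2 level of 13.07 ± 0.177 (SD of 4 saline channels) in the hypothalamus and between 7.83 and 9.93 in the other 5 regions. Trh (thyrotropin-releasing hormone) was 3.16 log2 units above the mean of the other regions and Oxt (oxytocin) 2.37. Avp (vasopressin) differed by 0.25, Hcrt (orexin) by -0.06 and Nkx2-1, a hypothalamic transcription factor, by -0.01. The median difference was 0.13 for 23 hypothalamic region genes, 14 of them higher, and -0.16 for 29 peptide genes, 12 of them higher. Thalamic genes had a median of 1.94 with 16 of 17 higher, led by Prkcd at 4.29, and oligodendrocyte genes had a median of 0.96 with 17 of 18 higher. The block thus held several defining peptides of the hypothalamus but also thalamic and myelin transcripts. None of the 210 marker genes passed limma at an adjusted p under 0.05 in this comparison of 6 regions, where each region is 1 slide, and 26 did at an unadjusted p under 0.05. Over all 27528 features tested there, 1 (0.00363%) was higher and 0 were lower.

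At the high dose 27 genes were higher, 0.120% of those tested, and 30 were lower, 0.134%. The median over all genes was 0.00537, and 95% of them lay between -0.196 and 0.199. Of the changed genes, 16 higher and 22 lower ones carry a gene symbol. Past 2-fold there were 5 higher and 8 lower. Among genes with a symbol, the lowest log2 ratios were those of Pmch, the dopamine transporter gene Slc6a3, Galnt16 and the choroid plexus gene Ttr, and the highest those of Ccn1, Sycp3l2, Apold1 and Prph. Among the changed features without a symbol the farthest from 0 were XM_344411, with 0.93 and 1.39, and A_44_P156751, with -0.76 and -1.38. In bulk tissue fewer cells of a type and less RNA per cell cannot be told apart, and this holds for every gene below.

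**Figure D1:**
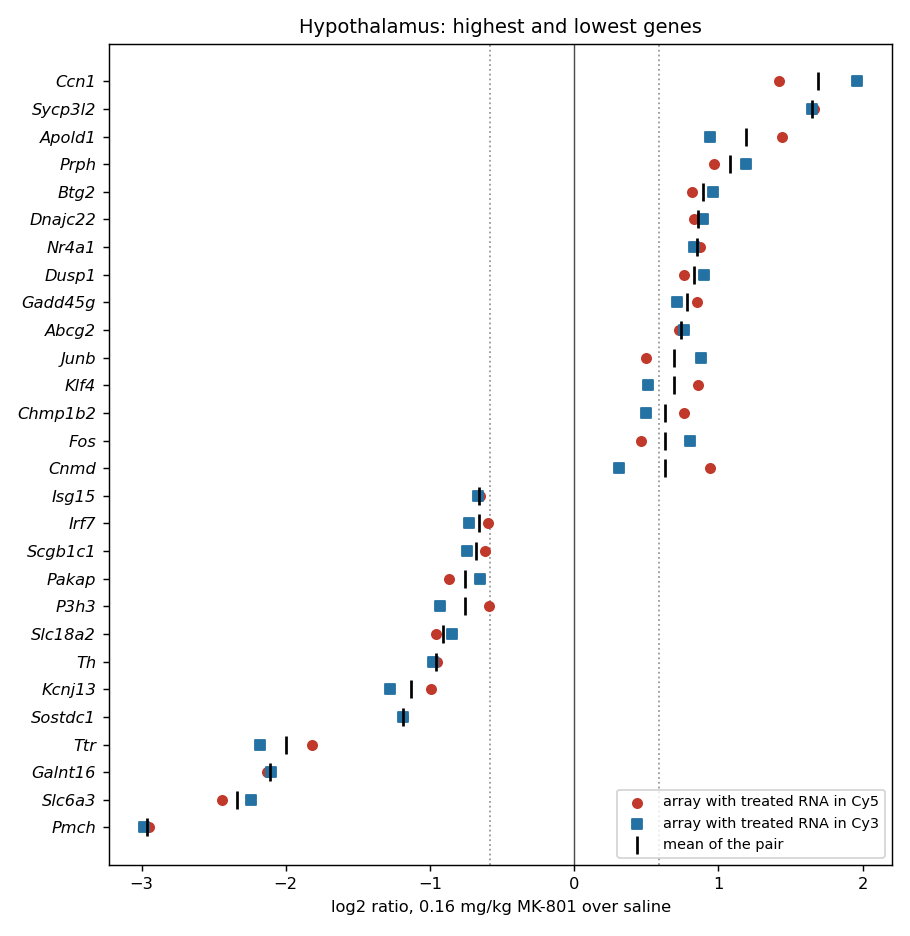
Log2 ratio of treated over saline RNA in the hypothalamus at 0.16 mg/kg for 28 of the highest and lowest genes with a symbol; marks show each of the 2 arrays and their mean, and dotted lines mark 1.5-fold. Both arrays lie on the same side of 0 for each gene shown, from Pmch at -2.96 to Ccn1 at 1.69.

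The early response was modest in size and spread over few genes. Of 53 early response genes tested, 9 rose and 0 fell, against 0.120% of all genes that were higher. Their median was 0.07, and 27 were above 0 on both arrays against 6 below. The 9 were Ccn1, Apold1, Btg2, Nr4a1, Dusp1, Gadd45g, Junb, Klf4 and Fos.

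Ccn1, which encodes a secreted matricellular protein induced by serum and stretch, had log2 ratios of 1.42 and 1.96, a mean of 1.69 ± 0.385 (SD of 2 arrays) or 3.23-fold. A second, dimmer Ccn1 probe gave 0.57 and 0.46, mean 0.51, so the probes agreed in sign and not in size. Apold1, a gene of activated endothelium, had 1.44 and 0.94, mean 1.19 or 2.28-fold. Both genes were far above 0 on either array. The antiproliferative cofactor Btg2 had 0.82 and 0.96, mean 0.89, and Dusp1 had 0.76 and 0.90, mean 0.83. The orphan nuclear receptor Nr4a1 had 0.87 and 0.83, mean 0.85, and the growth arrest gene Gadd45g had 0.85 and 0.71, mean 0.78. For these 4 genes the arrays differed by less than the size of the rise.

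The AP-1 members themselves rose little. Junb had 0.50 and 0.88, mean 0.69, and Fos 0.46 and 0.80, mean 0.63 or 1.54-fold. Jun, at 0.45 and 0.23 with a mean of 0.34, did not pass 1.5-fold, nor did the immediate early genes Egr1 at 0.03 and Arc at -0.01. Ier2 had a mean of 0.44, Klf2 0.50 and Atf3, a stress-inducible factor, 0.55, all short of the threshold. The vascular factor Klf4 had 0.86 and 0.51, mean 0.69. To read an array alone, the gene's mean dye effect over the series was first taken off it, and without array 2 Klf4 was then at 0.58 and no longer counted.

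The level of Fos in saline RNA was not the same beside both doses. Its normalized saline levels were 9.98 and 9.89 on the high-dose arrays and 8.39 and 8.45 on the low-dose arrays, while the treated levels were 10.44 and 10.68 on the former and 8.40 and 8.79 on the latter. The saline levels of Fos thus did not overlap and were 1.52 log2 units apart, larger than the rise itself. Abcg2 differed likewise by 1.07 and Nr4a1 by 0.81, both higher beside the high dose. Over 22073 genes this difference had a median of -0.0615 and a central 95% range from -0.566 to 0.768, and 135 genes were more than 2-fold higher beside the high dose with no overlap and 27 more than 2-fold lower. Whether both doses were set against the same saline extract is not given in the labels, and the part of such differences in the ratios was not tested.

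Among genes of the vessel wall the response was split. Of 13 early endothelial genes tested, 4 rose and 0 fell, against 0.120% of all genes that were higher, and the median was 0.20. The 4 were Ccn1, Apold1 and Klf4, which are also on the early response list, and Depp1. Depp1, a FOXO target, had 0.81 and 0.42, mean 0.62. Of 27 general endothelial and mural genes, 1 rose and 0 fell, with a median of -0.06. The one that rose was Abcg2, the efflux transporter of the blood-brain barrier, at 0.73 and 0.76, mean 0.74 or 1.67-fold. The tight junction gene Cldn5 had a mean of -0.12, the receptor gene Flt1 -0.11 and the efflux transporter gene Abcb1a 0.06. The level of vessel markers in general was thus near that of all genes on these arrays.

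The same early genes had larger or smaller values elsewhere. For Ccn1 the high-dose means were 4.16 in cortex, 3.94 in ventral striatum, 3.52 in amygdala, 2.11 in hippocampus and 0.65 in midbrain. The hypothalamic value of 1.69 lay between those of the midbrain and the hippocampus. Apold1 and Btg2 held the same place, with 0.84 and 0.47 in the midbrain and 1.97 and 1.0 in the hippocampus. Dusp1 at 0.83 and Klf4 at 0.69 were also lower only in the midbrain, at 0.55 and 0.48. The order was not the same for all. Gadd45g at 0.78 and Junb at 0.69 were above all other regions, which had 0.22 to 0.64 and 0.06 to 0.57. Nr4a1 at 0.85 was level with the cortex at 0.84, without a value in amygdala or midbrain. Fos at 0.63 lay inside its range elsewhere, 0.15 to 0.90. In limma over the 6 regions the hypothalamus minus the other 5 differed by -1.18 ± 1.01 (SE) for Ccn1, with an adjusted p of 0.855, and by -0.89 ± 0.554 for Apold1, with an adjusted p of 0.799. Abcg2 lay between 0.54 and 0.83 in the other regions, close around the hypothalamic 0.74 (limma difference 0.07 ± 0.0975, adjusted p 0.912).

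Promoters of the early genes were searched because 9 members of the list rose. The windows are the 300 bases from 250 before to 50 after the start in RefSeq's GRCr8 assembly, searched on both strands. A listed gene counted when any of its windows held the element, whereas the share of all windows counts each window alone. The cyclic AMP response element, written TGACGTCA, was present in 9 of the 41 early response genes that have a window (22%) and in 1.83% of all 33469 windows. Of these holders only Btg2 and Dusp1 are among the list members that rose. The others, such as Jund, Ier2 and Crem, were not called. Among the 16 higher genes with a symbol, 13 have a window and 3 of these hold it: Btg2, Dusp1 and Abcg2. Among the 22 lower genes, 16 have a window and 2 hold it, Th and Slc18a2, so the element was found on genes that moved in opposite directions. Its part in these values was not tested. The AP-1 site TGANTCA was in 0 of the 13 and in 7.33% of all windows, and the CArG box in 0 of the 13 and in 1.64%. Of the 41 early response genes, 2 held the AP-1 site (4.88%) and 3 the CArG box (7.32%). The stretches with the element in capitals are printed 5′ to 3′ along the gene: Btg2 at chr13:48087854-48087921 on the minus strand, Dusp1 at chr10:17184699-17184766 on the plus strand, Abcg2 at chr4:89075382-89075449 on the plus strand, Th at chr1:207508250-207508317 on the minus strand and Slc18a2 at chr1:268399939-268400006 on the plus strand.
Btg2: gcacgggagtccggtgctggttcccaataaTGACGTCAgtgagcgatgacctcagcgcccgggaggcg
Dusp1: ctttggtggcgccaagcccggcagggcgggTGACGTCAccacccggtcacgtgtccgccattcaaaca
Abcg2: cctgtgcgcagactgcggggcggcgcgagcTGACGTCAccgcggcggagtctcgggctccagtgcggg
Th: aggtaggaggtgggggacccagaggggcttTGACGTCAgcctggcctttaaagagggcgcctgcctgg
Slc18a2: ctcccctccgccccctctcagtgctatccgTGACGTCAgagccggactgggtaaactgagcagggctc

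Genes that answer to glucocorticoid hormone leaned upwards without any passing 1.5-fold. Of 22 tested, 13 were above 0 on both arrays and 1 below, where 41.8% of all tested genes had 1 sign on both. The median was 0.13, and the median at the low dose was 0.16. The kinase gene Sgk1 had 0.48 and 0.57, mean 0.53. Fkbp5, a chaperone that restrains the receptor, had 0.46 and 0.25, mean 0.35, and Map3k6 had the same mean of 0.35. The stress peptide gene Crh had 0.46 and 0.06, mean 0.26, and the receptor gene Nr3c1 a mean of -0.05. None of 13 stress axis genes was called.

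Pmch had the lowest log2 ratio measured, although the fall of Slc6a3, given further on, is a bound and cannot be ranked against it. The log2 ratios of Pmch were -2.95 and -2.98, a mean of -2.96 ± 0.0234 (SD of 2 arrays) or 7.80-fold lower. The normalized levels on the 4 arrays of the region show in which channel this arose. The 4 saline channels lay at 13.07, 12.86, 13.29 and 13.07, the high-dose channels at 10.12 and 9.88 and the low-dose channels at 11.51 and 11.34. All treated channels were thus below all saline channels, and those of the high dose were below those of the low dose. In the other 5 regions Pmch had means between -0.10 and 0.07 at the high dose.

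The fall of Pmch differed between regions in the fit across all genes. In limma the hypothalamus minus the other 5 regions was -2.96 ± 0.0768 (SE, 6 regions) with an adjusted p of 2.93e-08, and it was called in all 16 alternative fits run, the highest adjusted p being 0.000137. The hippocampus was scanned on the same day as the hypothalamus, and against it alone the difference was -2.97. That fit assumes that the lone hypothalamic value varies like the other 5 regions. In saline RNA Pmch was at 13.07 in the hypothalamus and between 7.83 and 9.93 in the other 5. A fall thus had less room to show there, and the fit cannot say how an equal level would have responded. As each region lay on a slide of its own, region and slide cannot be told apart.

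Other peptide genes of the hypothalamus did not follow. Of 28 tested, 2 fell and 0 rose, against 0.134% of all genes that were lower, and their median was 0.02. The orexin gene Hcrt, expressed in neighbouring neurons of the same lateral area, had 0.02 and -0.10, mean -0.04, though its saline level was no higher than in other regions. Oxt had a mean of -0.01, Pomc 0.02, Trh 0.11, Avp -0.22 and Cartpt, which many melanin-concentrating hormone neurons also make, -0.17. The second gene that fell was Pdyn, the precursor of dynorphin, with -0.45 and -0.73, mean -0.59, just past the threshold and short of it with median centring. Its low-dose mean was -0.72. Sst at -0.33 and Nts at -0.34 were below 0 on both arrays without passing it, and Vip had the highest mean of the list, 0.32. The receptor of the hormone, Mchr1, had a mean of -0.01, and 0 of 20 feeding-related receptor and signalling genes were called.

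**Figure D2:**
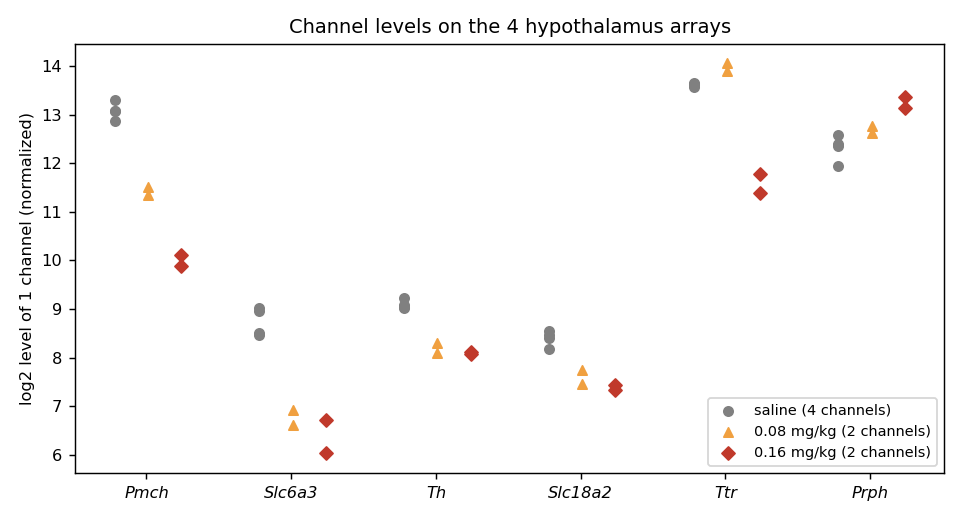
Normalized log2 level of Pmch, Slc6a3, Th, Slc18a2, Ttr and Prph in the 8 channels of the 4 hypothalamus arrays: 4 saline channels, 2 at 0.08 mg/kg and 2 at 0.16 mg/kg. Pmch falls from 12.86 or more in saline RNA to 11.51 or less after the low dose and 10.12 or less after the high one, whereas Ttr is below saline after 0.16 mg/kg and above it after 0.08 mg/kg.

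The core genes of dopamine neurons fell. Of 18 monoamine genes tested, with a median of -0.06, 3 fell and 0 rose, against 0.134% of all genes that were lower. The 3 were Slc6a3, the plasma membrane dopamine transporter, Th, the rate-limiting enzyme of dopamine synthesis, and Slc18a2, the vesicular monoamine transporter. Slc6a3 had log2 ratios of -2.44 and -2.24. Its treated channel was not well above background on either array, so the fall is a bound: at least 4.31-fold lower, with measured means of 6.37 in treated and 8.71 in saline RNA. Such a bound sets the bright mean against the higher, on each array, of the probe's own signal and the lowest signal among probes well above background. Th had -0.95 and -0.98, mean -0.96 ± 0.0161 or 1.95-fold. Slc18a2 had -0.96 and -0.85, mean -0.91 ± 0.0821 or 1.87-fold, and its second, dim probe had -0.30 and -0.49.

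The low-dose means were -0.93 for Th and -0.91 for Slc18a2. Slc6a3 had -1.99 there, and since its high-dose value is a bound the doses cannot be compared for it. Other monoamine genes moved less. Ddc, the next enzyme of the pathway, had -0.20 and -0.27, mean -0.23, the serotonin transporter gene Slc6a4 a mean of -0.03, the noradrenaline enzyme gene Dbh -0.02, the histamine enzyme gene Hdc -0.06 and the receptor gene Drd2 -0.17. None of these 5 passed 1.5-fold.

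Levels in saline RNA of the 6 regions place these transcripts. Slc6a3 was at 13.74 in the midbrain, 8.74 ± 0.287 (SD of 4 channels) in the hypothalamus and between 6.04 and 6.18 elsewhere. Th was at 13.79, 9.10 and 7.07 to 7.63, and Slc18a2 at 13.18, 8.40 and 6.67 to 7.38, in the same order. Each was thus far higher in the midbrain than in the hypothalamus. A list of 15 midbrain dopamine neuron genes, put together after these values were seen and therefore given as a description, had 9 tested members with a median of -0.39, against -0.25 with the low dose. Foxa2 had -0.45 and Slc10a4 -0.39, whereas Pitx3 had -0.01, Nr4a2 0.19 and Aldh1a1 -0.06.

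In limma across regions Th was -0.99 ± 0.076 (SE) below the other 5, with an adjusted p of 0.000945, and Slc18a2 -0.90 ± 0.0767, with an adjusted p of 0.00159. Slc6a3 did not enter that fit, as fewer than 3 of the other regions had a usable value. In the midbrain itself Th had a mean of 0.14 and Slc18a2 of 0.05, both near 0. In the remaining regions their saline levels were below those of the hypothalamus, at 7.07 to 7.63 for Th and 6.67 to 7.38 for Slc18a2. A fall had less room to show there, and the fit cannot say how an equal level would have responded. Each of the 2 calls was lost without array 1 of every region, with adjusted p of 0.156 for Th and 0.2 for Slc18a2 in limma. Both calls also failed with median centring, with the scanner's processed signals and with the deposited value table.

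Genes that mark neighbouring tissue fell as well. The dendritic gene Ddn had -0.77 and -0.45, mean -0.61, and Mas1, a receptor of the hippocampus, -0.60 and -0.57. Mas1 was not well above background in treated RNA on either array and is therefore at least 1.48-fold lower.

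Lists of such neighbours, also chosen after the values were seen, describe the same arrays. Of 15 cortical and hippocampal neuron genes, 13 were tested, 3 fell and 0 rose, against 0.134% of all genes that were lower. Their median was -0.32, against -0.25 with the low dose. Itpka, an inositol kinase of dendritic spines, had -0.53, Emx2 -0.39 and Nrgn -0.37, whereas Neurod6 had 0.05. Of 10 striatal neuron genes 1 fell, with medians of -0.34 and -0.32. Rgs9 had -0.44 and Adora2a -0.43, whereas Drd1 had -0.06. By these medians, markers of dopamine, telencephalic and striatal neurons were below 0 at both doses. The part of the dissection in the falls of Pmch, Th, Slc18a2, Slc6a3 and Pdyn was not tested.

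The thalamic genes, which were abundant in this block, leaned the other way without any call. Of 16 tested, 9 were above 0 on both arrays and 3 below, with a median of 0.07. Tnnt1 had a mean of 0.32, Nexn 0.28, Zic4 0.25 and Prkcd 0.19. Of 17 hypothalamic region genes 1 fell and 0 rose, against 0.134% of all genes that were lower. On both arrays 7 were below 0 and 1 above, and the median was -0.04.

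Prph and Dnajc22 rose in the hypothalamus and lie close together on chromosome 7. Prph encodes peripherin, an intermediate filament of peripheral and some central neurons, and Dnajc22 a membrane protein with a J domain of the kind that works with Hsp70. Prph had 0.97 and 1.19, mean 1.08 ± 0.154 or 2.12-fold, and Dnajc22 had 0.83 and 0.89, mean 0.86 ± 0.0444 or 1.81-fold. In the other 5 regions Prph had means between -0.17 and 0.13 and Dnajc22 between 0.15 and 0.33. At the low dose the hypothalamus had 0.23 and 0.22. In saline RNA Prph was at 14.04 in the midbrain, 12.32 in the hypothalamus and between 10.02 and 10.86 elsewhere. Dnajc22 was at 8.9, 7.9 and 7.13 to 7.96, in the same order. Both were thus highest in the midbrain, and the part of the dissection in these rises was not tested.

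In limma across regions Prph differed by 1.06 ± 0.101 (SE), adjusted p 0.00394, and Dnajc22 by 0.61 ± 0.0833, adjusted p 0.0431. The call on Prph was lost without array 2 (limma adjusted p 0.0649) and with median centring (0.0806), and that on Dnajc22 in 13 of the 16 alternative fits, as set out with the region comparison. With the scanner's processed signals and with the deposited value table the call on Prph was lost as well. In rn3 the probe of Prph is at chr7:137916302-137916361 and that of Dnajc22 at chr7:137957007-137957066, both on the plus strand. In the RefSeq order of GRCr8, 2 coding genes lie between them, Troap, tested at a mean of 0.09, and C1ql4, which was not above background. Of the 22 coding genes between and up to 10 places to either side of the pair, 14 were tested, with means from -0.61 to 0.16, and the 1 that was called is Ddn, which fell. This neighbourhood was looked up after both values were seen.

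Sycp3l2, a relative of a meiotic chromosome protein, had 1.66 and 1.65. Its saline channel was not well above background on either array, so it was at least 2.98-fold higher, and its means in the other regions were 0.49 to 1.70. The smaller rises of Chmp1b2 (0.76 and 0.50, mean 0.63) and Cnmd (0.94 and 0.31, mean 0.63), each fell short without 1 array, at 0.57 without array 2 and 0.48 without array 1.

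Choroid plexus genes were among the largest falls. Of 8 tested, 3 fell and 0 rose, against 0.134% of all genes that were lower. On both arrays 7 were below 0, and the median was -0.46. Ttr, transthyretin, the thyroid hormone carrier that the plexus secretes, had -1.82 and -2.18, mean -2.0 ± 0.25 or 4-fold lower. Sostdc1, a secreted antagonist of BMP and Wnt signals, had -1.19 on both arrays, and Kcnj13, a potassium channel of the plexus, -0.99 and -1.28, mean -1.13. The folate receptor gene Folr1 had -0.38, Clic6 -0.50 and Aqp1 -0.41, all below 0 on both arrays and short of the threshold.

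These genes did not move alike across doses or regions. At the low dose the hypothalamus had 0.34 for Ttr, 0.41 for Sostdc1 and 0.14 for Kcnj13, with a list median of 0.14. Across regions the high-dose mean of Ttr ran from -2.62 in hippocampus over -0.18 in midbrain, 0.12 in cortex and 0.78 in ventral striatum to 1.34 in amygdala. The list median was 0.89 in the amygdala and -0.17 in the hippocampus. Hippocampus and hypothalamus, the regions of the same scan day, were thus both low for Ttr and the amygdala was high. In limma the difference between the hypothalamus and the other 5 did not pass the threshold for Ttr (-1.89 ± 1.04, adjusted p 0.774) or Kcnj13 (-1.27 ± 0.398, adjusted p 0.743).

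On the high-dose arrays the summed level of the choroid plexus list ranged from 14.15 to 14.74 log2 units in saline channels and from 12.86 to 13.98 in treated channels. Meningeal fibroblast genes moved with it: 10 of 14 were below 0 on both arrays, 0 were called and the median was -0.21, with Col1a2 at -0.35 on both arrays and Ptgds at -0.30. Tanycyte and ependymal genes, which line the same ventricle, had a median of -0.04 with 0 of 8 called. The amount of plexus or meninges in the dissected blocks was not measured, and its part in these falls was not tested. The thyroid axis, which transthyretin serves, had 0 of 11 genes called, with Trh at 0.11, Dio2 at 0.04 and the hormone-responsive Thrsp at 0.41.

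**Figure D3:**
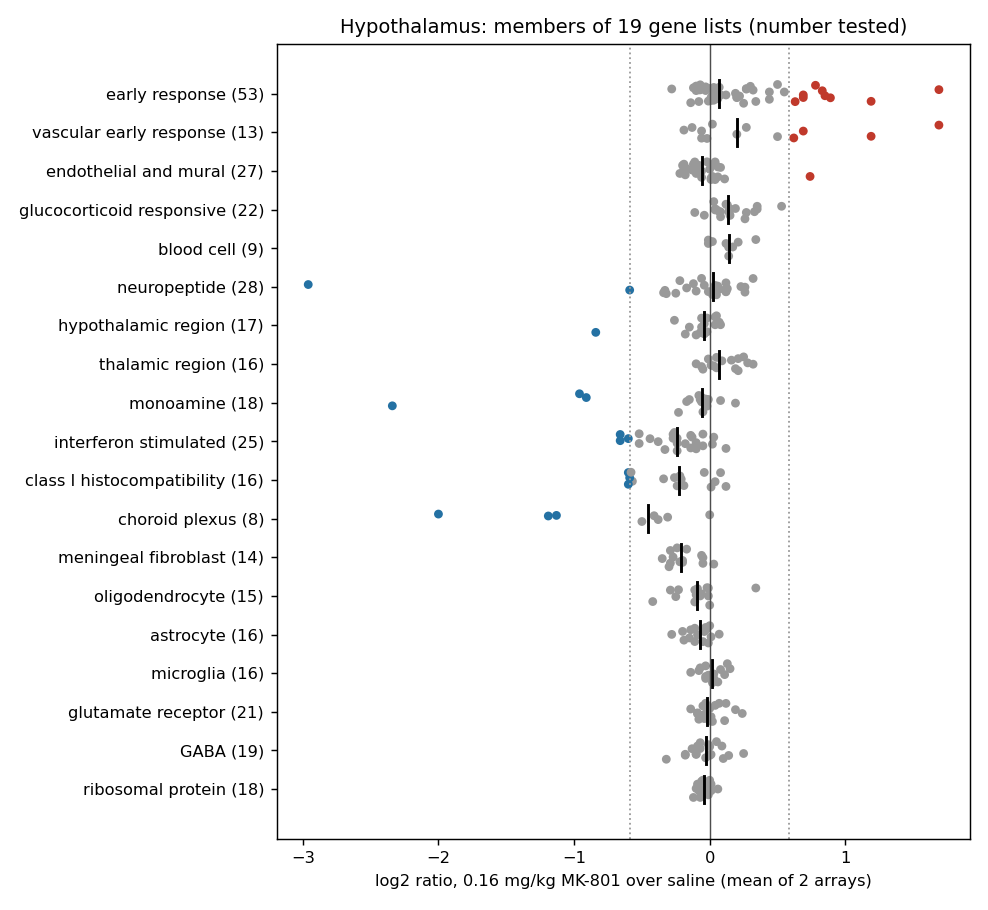
Mean log2 ratio at the high dose in the hypothalamus for the tested members of 19 gene lists, 1 point a gene, with the list median as a bar and genes past 1.5-fold coloured red when higher and blue when lower. The early response list holds 9 red points, the interferon, class I and choroid plexus lists 3 blue ones each, and most other points lie near 0.

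Interferon-stimulated genes, the antiviral set that type I interferon sustains, were below 0 in most members. Of 25 tested, 3 fell and 0 rose, against 0.134% of all genes that were lower. On both arrays 21 were below 0 and 1 above, and the median was -0.24 against 0.00537 over all genes. Irf7, the factor that amplifies interferon, had -0.60 and -0.73, mean -0.66 ± 0.0945. Isg15, a ubiquitin-like modifier, had -0.65 and -0.67, also a mean of -0.66. Bst2, which tethers budding virions, had -0.85 and -0.34, mean -0.60, and lost the threshold without array 1, at -0.50.

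Rtp4 and Usp18, both at a mean of -0.52, and Oas1a at -0.44 were below 0 on both arrays without passing 1.5-fold, while Ifit2 had 0.02. At the low dose the list median was -0.13, with Irf7 at -0.23 and Isg15 at -0.28. The direction was shared with the other regions. Irf7 lay between -0.67 and -0.49 there and Isg15 between -0.78 and -0.34, and the list medians were -0.18 to -0.11. In limma the hypothalamus minus the others was -0.09 ± 0.082 for Irf7 (adjusted p 0.860), short of the threshold. The microglial list, whose cells carry many of these transcripts, had a median of 0.02 with 0 of 16 called.

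Promoters of this group were searched as well, since most of its members were below 0. The interferon-stimulated response element, written GAAANNGAAA, was in 12 of the 18 list members with a window (66.7%) and in 3.92% of all windows. A high share comes with a list made of interferon-stimulated genes, and the part of the element in these values was not tested. Both of the called members that have a window, Irf7 and Bst2, hold it, and so does Oas1a. The windows are shown with the element in capitals, in GRCr8: Irf7 at chr1:205800053-205800122 on the minus strand, where the element runs on the opposite strand, Bst2 at chr16:18255059-18255128 on the minus strand and Oas1a at chr12:41330395-41330464 on the plus strand. Members with the element that did not move much include Ifit3 at 0.03 and Psmb8 at -0.05.
Irf7: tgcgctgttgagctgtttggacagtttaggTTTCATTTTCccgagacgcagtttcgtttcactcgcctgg
Bst2: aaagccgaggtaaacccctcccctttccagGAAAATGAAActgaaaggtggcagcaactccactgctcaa
Oas1a: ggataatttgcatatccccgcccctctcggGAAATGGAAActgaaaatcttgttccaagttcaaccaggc

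Class I histocompatibility genes, whose products display peptides to T cells, were also low. Of 16 tested, 3 fell and 0 rose, against 0.134% of all genes that were lower. On both arrays 10 were below 0 and 3 above, and the median was -0.23. The 3 that fell were RT1-CE3 (-0.66 and -0.55), RT1-CE2 (-0.80 and -0.40) and RT1-CE16 (-0.72 and -0.46), all with means of -0.60 or -0.59. With median centring none of the 3 passed. RT1-S3 at -0.58 and RT1-A2 at -0.57 stopped just short. These genes are near-identical copies whose probes can bind each other's transcripts, so their values are uncertain gene by gene and are not independent. B2m, the light chain they share, had a mean of -0.04, and Tap2 0.04. At the low dose RT1-CE3 had -0.87, RT1-CE16 -0.75 and RT1-CE2 -0.54, against which the high-dose means were -0.60, -0.59 and -0.60. These 3 genes were below 0 in the other regions too. At the high dose RT1-CE3 had -0.51 to -0.25 there, RT1-CE16 -0.51 to -0.26 and RT1-CE2 -0.47 to -0.23. The list medians in those regions were -0.14 to 0.

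Galnt16 fell in the hypothalamus and was as low in the other regions at the high dose. In the hypothalamus it had -2.13 and -2.10, mean -2.11 ± 0.0202 or 4.32-fold lower, and in the other regions its means were between -2.24 and -1.78. The hypothalamus minus these was -0.15 ± 0.157 in limma (adjusted p 0.881), short of the threshold. Its normalized saline levels were 10.93, 10.77, 11.19 and 10.92 and its treated levels 8.81 and 8.67 with 0.16 mg/kg and 10.54 and 10.32 with 0.08 mg/kg, so the groups did not overlap. P3h3, a collagen prolyl hydroxylase, behaved likewise with -0.59 and -0.93, mean -0.76, and -0.92 to -0.63 elsewhere. Its second probe, which was much dimmer, had a mean of -0.13, and the call was lost on averaging the probes, at -0.45. The remaining falls with a name were those of Pakap, with a mean of -0.76, and Scgb1c1, a secretoglobin, with -0.68.

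Both doses of the hypothalamus were set against saline RNA of that region, on 1 slide, and their values are given side by side. At the low dose 13 genes were higher and 18 lower of 22807 tested. High minus low passed 1.5-fold with 1 sign in both dye orientations for 17 genes upwards (0.0805% of 21106) and 24 downwards (0.114%). With an offset of 16 in place of 50 the counts were 38 and 34. There is no test of this difference within the region.

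The genes that set the doses apart were of several kinds. Ccn1 had 1.69 against 0.65, a difference of 1.04, Apold1 1.19 against 0.34 and Nr4a1 0.85 against 0.07. Of 48 early response genes with both doses, 5 were higher at the high dose by this rule and 0 lower, against 0.0805% of all genes that were higher. Prph differed by 0.85 and Dnajc22 by 0.63. Dusp1 (0.83 against 0.55), Btg2 (0.89 against 0.50) and Abcg2 (0.74 against 0.56) differed by less than 1.5-fold.

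Some differences came from opposite signs. Atf3 had 0.55 against -0.39 with the low dose, and Haus1, a subunit of the augmin complex of the spindle, 0.56 and -0.49, although a second Haus1 probe gave -0.07 and 0.28. P3h3 had -0.76 and 0.64, and Ttr -2.0 and 0.34. Of 8 blood cell genes with both doses, 2 were higher, against 0.0805% of all genes. These 2 were Hbb, a beta globin, with 0.14 and -0.49, and Alas2, the haem enzyme of red cells, with 0.17 and -0.45. Residual blood was not measured, and the median of the 9 blood genes tested was 0.14 at the high dose.

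**Figure D4:**
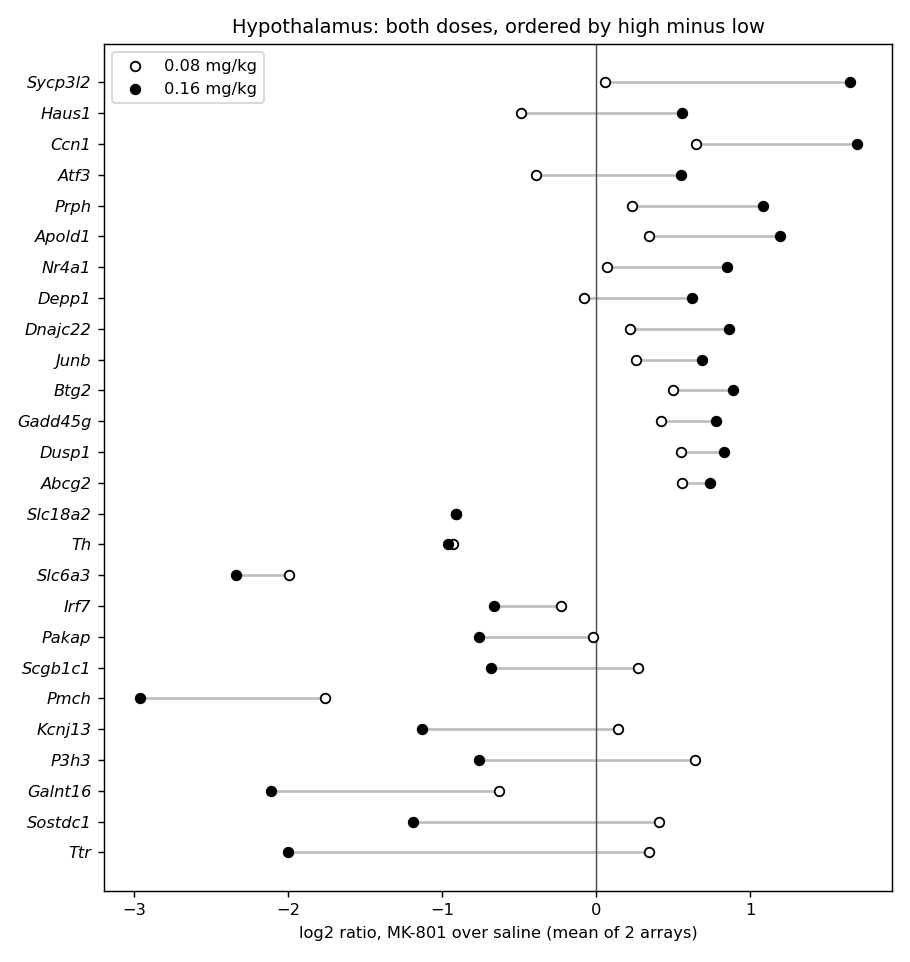
Mean log2 ratio in the hypothalamus at 0.08 mg/kg (open) and 0.16 mg/kg (filled), joined by a line for each gene and ordered by the difference; probes not well above background, such as that of Slc6a3, are drawn as measured. Ccn1 and Prph are higher at the larger dose, Th and Slc18a2 coincide at both doses, and Ttr runs from 0.34 to -2.0.

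Pmch was the 1 gene (0.00544% of 18393) whose dose difference departed from that of the other regions. It went from -1.76 at the low dose (-1.78 and -1.73) to -2.96 at the high dose, a difference of -1.21, and in limma the difference was -1.30 ± 0.127 (SE) below the mean of the other 5 regions, with an adjusted p of 0.0099. The lower saline level of Pmch in the other regions limits this comparison too. At an unadjusted p under 0.05 there were 745 genes. The call was made in 10 of 16 alternative fits and was lost without array 2 of every region, at a limma adjusted p of 0.392, with the difference still at -1.30. It was also lost with scan day as a block (limma adjusted p 0.189) and with median centring (0.268). For Th and Slc18a2 high minus low was -0.03 and 0.00.

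Across the 6 regions 10 of 19953 genes (0.0501%) differed between the hypothalamus and the other 5 at the high dose in limma at an adjusted p under 0.05. Of these 4 were higher (0.0200%) and 6 lower (0.0301%), while 1331 passed at an unadjusted p under 0.05. Those described here are Pmch, Th, Slc18a2, Tfap2b and Itpka on the lower side and Prph and Dnajc22 on the higher. Itpka differed by -0.54 ± 0.0723 (SE, limma adjusted p 0.0396) and Tfap2b, an AP-2 transcription factor with a mean of -0.58, by -0.55 ± 0.0677 (adjusted p 0.0242).

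The limma calls on Itpka, Tfap2b and Dnajc22 depended on the regions fitted, while their differences hardly moved without any 1 region: -0.52 to -0.56 for Itpka, -0.54 to -0.56 for Tfap2b and 0.58 to 0.63 for Dnajc22. In limma Tfap2b was lost without array 1 (adjusted p 0.2), array 2 (0.681), the amygdala (0.0644), the cortex (0.106) or the hippocampus (0.0729), and Dnajc22 without array 1 (0.312), array 2 (1), the amygdala (0.0644), the cortex (0.114), the hippocampus (0.0892) or the ventral striatum (0.0928). Itpka was lost without any 1 region or either array, at limma adjusted p of 0.0536 to 0.628. Scan day as a block also ended the limma calls on Tfap2b (adjusted p 0.247), Itpka (0.185) and Dnajc22 (0.15). Against the hippocampus alone, which shares the scan day, the differences were -0.57 for Tfap2b, -0.62 for Itpka, 0.68 for Dnajc22, 1.26 for Prph, -0.94 for Th and -0.98 for Slc18a2, so none changed sign.

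**Figure D5:**
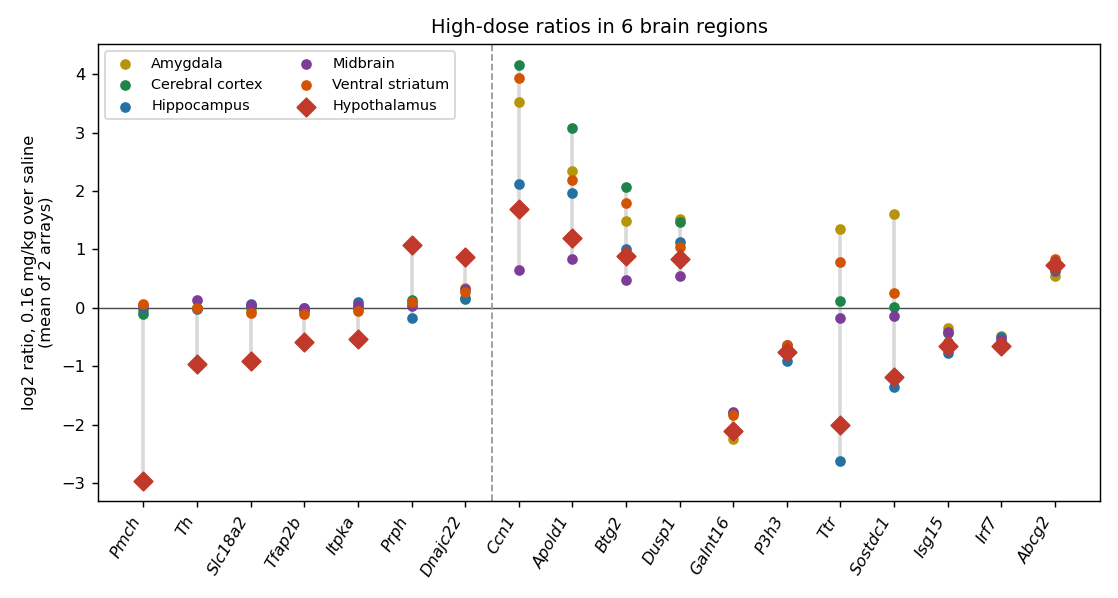
Mean log2 ratio at the high dose for 18 genes in each of the 6 regions; the 7 genes before the dashed line differed between the hypothalamus and the other regions in limma. Pmch, Th and Slc18a2 are near 0 outside the hypothalamus, whereas Galnt16 lies between -2.24 and -1.78 in the other 5 regions and Ccn1 is above 0 in all 6.

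The target of the drug and most other gene groups stayed near the level of all genes. Of the NMDA receptor subunits, Grin1 had 0.17 and -0.03, mean 0.07, Grin2a -0.08 and Grin2b -0.03. None of 21 glutamate receptor genes and 19 genes of GABA signalling was called, with medians of -0.02 and -0.03 and the extremes at Grm4 with 0.24 and Gad1 with -0.32. The lists of astrocyte (16 genes, median -0.07), oligodendrocyte (15, -0.09), microglia (16, 0.02), pituitary and pineal (11, -0.10), heat shock (14, -0.02), clock (18, 0.00) and ribosomal protein genes (18, -0.04) also had 0 called, as had 6 tested inflammatory genes with a median of -0.03. The heat shock gene Hspa1a had -0.38 and -0.49 at the high dose, mean -0.43, and -0.62 at the low dose. A gene with a strong dye effect, Ndrg2, had 0.91 and -0.98, which cancel to -0.04.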

How the data were processed

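RNA of 6 brain regions was measured on 24 arrays of 2 colours. The spot intensity of each dye, with its local background, comes from the scanner files, per the file headers, made with Agilent Feature Extraction, version 9.5.3.1 in the submitters' processing notes. The value table deposited by the authors holds log10 ratios of treated over saline, since 100% of its values on the hypothalamus arrays lay within 0.01 of the log10 ratio of the scanner's processed signals once the swapped array was turned. Per the file headers, those processed signals are background-subtracted and dye-normalized. Of its columns, 0 lacked a sample. Its column medians were -0.01 and 0.01 for both hypothalamus pairs, and no source used here gives a further filter.

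In limma 3.58.1 (R 4.3.3; tables were read by data.table, release 1.17.8) the intensities were corrected with normexp at an offset of 50, then normalized by loess within each array, giving control spots no weight. The resulting log2 ratios, computed from the deposited intensities, were turned to treated over saline. Spots marked as outliers were left out, and the brightest of several probes stood for a gene. Names came through accessions and symbols in a GRCr8 table, and 15503 of 35526 features have a symbol. Levels of single channels were quantile-scaled on their average between arrays.

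Region tests used limma over 6 pair means, hypothalamus against the mean of the other 5, with 4 residual degrees of freedom and Benjamini-Hochberg adjustment. They covered genes usable in the hypothalamus and at least 3 other regions that had a value, usable or not, in every region fitted. Such p-values measure spread between regions, not rats. Scan days were 1 for cortex and ventral striatum, 2 for amygdala and midbrain, and 3 for hippocampus and hypothalamus. The scripts were tested on simulated data. The members and lists were chosen with earlier results of these data known. Genes named are the 15 highest and 15 lowest with a symbol, up to 10 each way per region test, the 8 extremes each way of high minus low, up to 6 per list, and Grin1, Grin2a and Grin2b. A few genes are not reported here. Other genes are named to fill in a list, or were chosen after their values were seen. Alternatives changed the offset, the signals, the normalization, the probe rule, the filter and the fold, and left out arrays or regions in turn.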

Additional observations from a re-analysis of the deposited data

Results flagged for a closer look

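In 10 of 157 named genes measured in all 6 regions, the hypothalamus stood apart from the other 5 at the high dose by a gap that Dixon's 95% critical value marks, where chance marks about 1 in 20 groups. That rate does not hold here, because the named genes were largely picked by their hypothalamic values. Of the 10, 7 (Pmch, Th, Slc18a2, Tfap2b, Itpka, Prph and Dnajc22) were named because the hypothalamus differed from the other regions. Mc4r, Drd2 and Zic4 were named because their hypothalamic ratios were among the largest in a list. The lower ones, with the nearest other region after each, were Pmch at -2.96 (-0.10), Th at -0.96 (-0.03), Slc18a2 at -0.91 (-0.09), Tfap2b at -0.58 (-0.10), Itpka at -0.53 (-0.05), Mc4r at -0.26 (0.08) and Drd2 at -0.17 (-0.02). The higher ones were Prph at 1.08 (0.13), Dnajc22 at 0.86 (0.33) and Zic4 at 0.25 (0.06). For Mc4r, a melanocortin receptor, the other 5 regions lay within 0.08 to 0.09, so a small departure met the rule.

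In the test of the difference itself, limma over 6 regions, the hypothalamus minus the other 5 was -2.96 for Pmch, -0.99 for Th, -0.90 for Slc18a2, -0.55 for Tfap2b, -0.54 for Itpka, 1.06 for Prph and 0.61 for Dnajc22. The dose difference of Pmch departed by -1.30 from that of the other regions.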

How the results depend on the processing

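No called value changed sign, whereas 28 alternative values of 22 named genes that were not called did, as did the medians of 11 gene lists. The count of 57 genes past 1.5-fold at the high dose became 193 with the scanner's processed signals, 187 with the deposited value table and 13 at 2-fold, and 54 to 72 with 1 array left out. With the processed signals all 27 higher and 30 lower genes were still called. The 10 genes of the region test became 1 with processed signals, with the deposited table and with median centring, 3 with both channels above background, 6 with scan day as a block, 2 and 3 without array 1 and array 2, and 4 to 10 without 1 region (4 without the cortex, 6 without the hippocampus). The 1 gene left was Pmch. The 41 genes of high minus low became 72 at an offset of 16, 229 with processed signals, 224 with the deposited table and 11 at 2-fold, and 45 to 48 without 1 array. The higher share of these was 41.5%, against 52.8% at an offset of 16, 59.4% with processed signals and 58.9% with the deposited table. The single gene of the dose test became 0 at an offset of 16, with processed signals, the deposited table and median centring, 2 with scan day as a block, and 0 to 6 with 1 array or region left out (6 without the amygdala, 3 without array 1). The cause of these shifts was not tested.

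Of 468 alternative values of named genes called by fold, 118 moved by more than the spread between arrays, as did 161 of 1269 for those not called. Of 140 alternative region or dose tests of single genes, 62 were no longer past the threshold. Lost calls past 1.5-fold were Sycp3l2, Slc6a3 and Mas1 when both channels had to be above background, and Klf4, Cnmd, RT1-CE16, RT1-CE2, RT1-CE3, Pdyn, Bst2 and P3h3 under median centring. Without array 2, Mas1 was at -0.56, RT1-CE16 at -0.55, RT1-CE2 at -0.52 and Ddn at -0.38. With processed signals, Ccn1 was at 2.59, Slc6a3 at -6.15, Sycp3l2 at 4.92 and Kcnj13 at -2.11. The number of arrays limits the precision. No paired analysis was possible because the replicate numbers mark dye orientation, and the 2 arrays of a pair were counted as 1 replicate.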
